A study of Homo sapiens with 6 samples.

Results

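BHLHE40 and 9 circadian clock genes were followed in RNA-seq libraries of the breast cancer cell line MDA-MB-231, with and without knockdown of the lncRNA Smyca (MIR23AHG). The 10 genes were BHLHE40, BHLHE41, PER1, PER2, PER3, CRY1, CRY2, NR1D1, NR1D2 and DBP, out of 58302 genes in the files. BHLHE40 was selected on its difference between the groups in an earlier analysis of the same counts, and the other 9 for their place in the clock with that analysis known, so that the difference of each is given as a description with no p, and counts of members past a threshold only beside the share over all genes. All 10 had an identifier in the files and passed the filter on low counts, which left 15075 genes. The 3 control libraries came from cells stably expressing a control shRNA. The 3 knockdown libraries came from cells expressing Smyca shRNA #1, a single hairpin cloned in a pLKO vector. The study's text names no vector for the control shRNA. Whether the lines were clones or pools, and at what hour or after what synchronisation the cells were harvested, was not given in the sources used here. The study calls the repeats biological, while the labels do not name separate cultures. In bulk RNA fewer cells of a type and less RNA per cell cannot be told apart.

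The circadian clock is a feedback loop of transcription. CLOCK and BMAL1 bind E-boxes and activate PER and CRY genes, whose proteins return to the nucleus and repress that activation. NR1D1 and NR1D2 (REV-ERBs) repress BMAL1, RORs oppose them at the same sites, and DBP activates genes with D-boxes. BHLHE40 (DEC1) and BHLHE41 (DEC2) are repressors that compete at E-boxes. BHLHE40 is also known as a gene induced by hypoxia, and PER1 as one induced rapidly by serum and stress signals.

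The E-box CACGTG is the site that clock activators and BHLHE40 share, so the promoters of the members that hold it and stood highest in control library 1 relative to the knockdown are shown. The sequences are from RefSeq on GRCh38.p14, 5′ to 3′ on the strand of the gene, with the E-box in capitals and the RefSeq start of the gene at position 1. BHLHE40 is shown at chr3:4979187-4979436 on the plus strand, within the span of the antisense gene BHLHE40-AS1. BHLHE41 is shown at chr12:26125050-26125115 on the minus strand, within the span of SSPN, and PER1 at chr17:8152542-8152607 on the minus strand, within a longer GENCODE span of PER1. None of the 3 stretches overlaps an annotated exon.
BHLHE40: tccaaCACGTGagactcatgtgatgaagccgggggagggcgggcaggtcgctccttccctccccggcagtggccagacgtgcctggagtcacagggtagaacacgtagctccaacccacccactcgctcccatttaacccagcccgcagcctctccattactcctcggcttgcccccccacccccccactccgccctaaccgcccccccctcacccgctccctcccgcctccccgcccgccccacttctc
BHLHE41: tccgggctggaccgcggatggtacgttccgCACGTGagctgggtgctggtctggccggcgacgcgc
PER1: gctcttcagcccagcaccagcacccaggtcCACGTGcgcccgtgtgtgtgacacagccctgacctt

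CACGTG, searched on both strands, began at position -245 in BHLHE40, -48 in BHLHE41 and -173 in PER1. NR1D2 held it at -155 and -105 in the second of its RefSeq windows. In all, 4 of the 10 members held CACGTG, in 4 of their 13 windows, beside 7.26% of 35116 promoter windows of the same length. ACGTG, the core of the hypoxia response element, is contained in CACGTG and occurred in 8 of the 10 members, beside 21.4% of windows. In BHLHE40 it matched at -245, -244, -174 and -149, of which the first pair lies in the E-box. The D-box TTATGTAA occurred in PER3 and NR1D2, in 2 of the 13 windows, beside 0.886% of all windows. AGGTCA, the core bound by REV-ERB and ROR proteins, occurred in PER1 and CRY2, in 3 of the 13, beside 13.8%. A match describes these letters only and is not a bound site. PER3, CRY2 and NR1D2 had more than 1 window each, which gives them more chances of a match.

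Smyca itself stood at 22.15 ± 2.75 normalized CPM (CPM, counts relative to the TMM-scaled library size) in the control libraries and 7.69 ± 2.51 in the knockdown libraries (SD, n = 3 each). Total counts lay between 14999307 and 16501085. FPKM values tracked their own counts in 100% of the genes checked in 5 libraries, but only in 2.24% in control library 2. The whole reads behind the FPKM of control 2 correlated with the counts of control 3 at r = 0.9963 and with the counts of control 2 at r = 0.9575, across 13551 genes, which are not independent replicates. Against the counts of control 3 they differed by a mean chi-square of 2.60 per gene, where 1 is sampling noise, while other pairs of control or knockdown libraries gave 19.01 to 103.6. Which column belongs to control 2 is not known. Values use its counts unless said otherwise, and the differences of most genes are given again with its FPKM reads, with or without control 1. Of the cell markers, all 5 mesenchymal or basal-like genes had at least 10 counts in every library, with a summed CPM of 573.3 to 1261 in the control and 632.8 to 965.8 in the knockdown. The 4 epithelial genes did too, at a summed CPM of 6036 to 6361 and 6592 to 9134, among them KRT8 (66358 to 112201 counts) and CDH1 (1116 to 4864). Of 10 gut and liver genes 5 had at least 10 counts in every library, at a summed CPM of 328.9 to 573.0 and 680.4 to 805.5 for the list, led by HNF4A (1021 to 3064 counts) and VIL1 (3443 to 7901), while CDX1 had 0 and KRT20, ALB and APOA1 at most 6, 4 and 1. Of the 4 luminal genes, GATA3 had 19 to 61 counts, PGR 0, and ESR1 and FOXA1 at most 3 and 2. These epithelial, gut and liver genes go against the label of a mesenchymal breast line, and their part in the results was not tested.

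BHLHE40 was the member with the widest gap between the groups. It lies on chromosome 3 from 4979437 to 4985323 (GRCh38, plus strand). Its normalized CPM was 749.5, 408.8 and 121.7 in control libraries 1, 2 and 3, and 77.78, 72.86 and 78.64 in knockdown libraries 1, 2 and 3. All control libraries stood above all knockdown libraries, but control 3 stood much closer to the knockdown than to control 1. The group means were 426.6 ± 314.3 and 76.42 ± 3.12 (SD, n = 3 each). The log2 ratio of control to knockdown, positive where the knockdown was lower, was 2.48 with an SE of 0.53.

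The knockdown libraries were nearly level, with the highest 1.08 times the lowest, while the highest control was 6.16 times the lowest. On the log2 scale only 0.61% of the genes tested had a control SD as large as that of BHLHE40, and 93.8% had a knockdown SD at least as large. Relative to the knockdown mean, controls 1, 2 and 3 stood 9.81, 5.35 and 1.59 times as high. From the reads behind its FPKM, control 2 was at 126.6 CPM, or 1.66 times the knockdown mean. The size of the difference thus rested on control 1 and on the counts of control 2. Without control 1 the log2 ratio was 1.80. With the FPKM reads for control 2 it was 2.10, and with control 1 also left out it was 0.68 with an SE of 0.11.

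**Figure D1:**
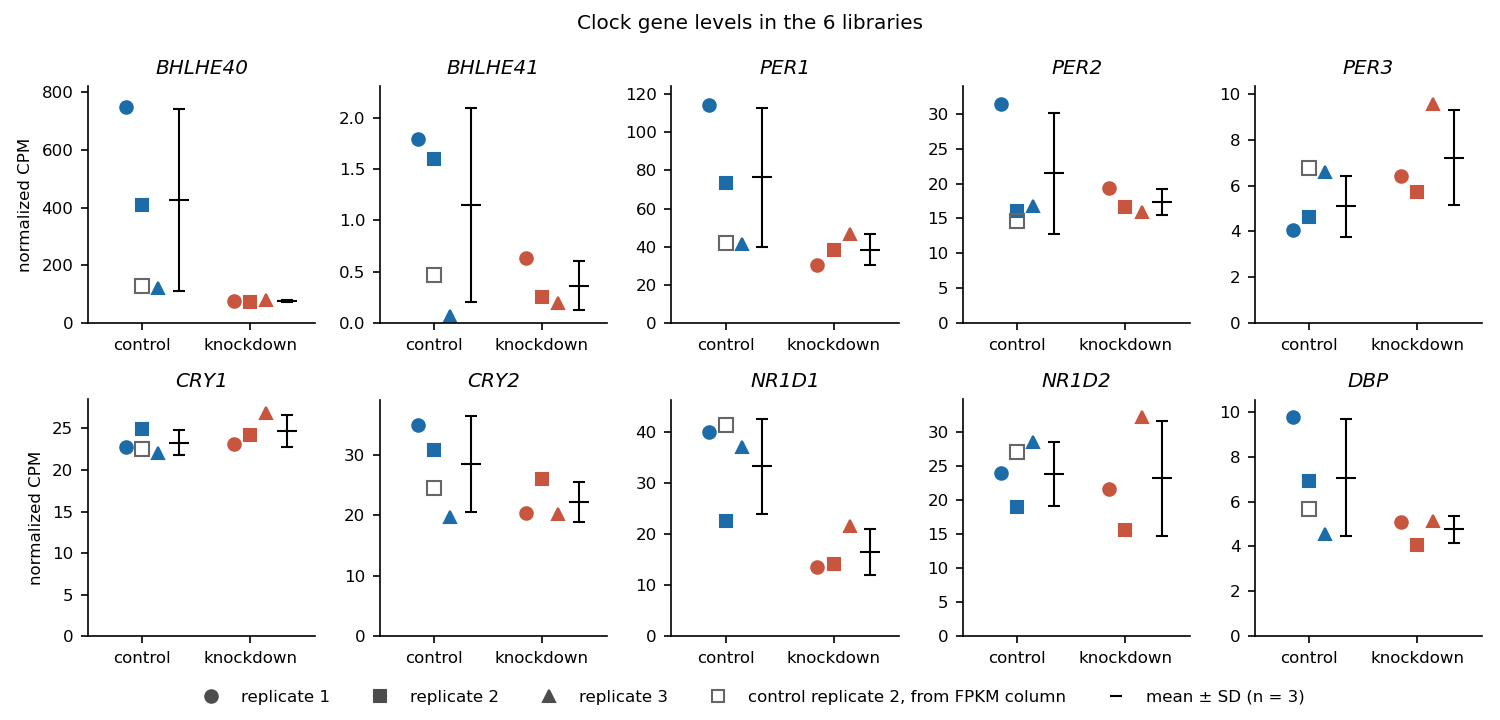
Normalized CPM of the 10 genes in each library, with the mean and SD of each group (n = 3) and the value of control 2 worked out from its FPKM column shown beside that from its counts. BHLHE40 ran from 121.7 to 749.5 in the control and from 72.86 to 78.64 in the knockdown.

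BHLHE41, the close relative of BHLHE40, was hardly expressed. It had 29, 26 and 1 counts in the control and 10, 4 and 3 in the knockdown, so that controls 1 and 2 were above every knockdown library and control 3 below them. Read from its FPKM column, control 2 had 8 reads, or 0.463 CPM, inside the knockdown range of 0.198 to 0.635. The log2 ratio of BHLHE41 was 1.65 with an SE of 0.91, and ran from 1.19 without control 1 to 2.30 without knockdown 1, with 2.19 (SE 0.52) without control 3.

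Among the period genes, whose products form the repressor complex with the cryptochromes, PER1 (chromosome 17, 8140472 to 8156506, minus strand) had the largest difference. PER1 CPM was 114.2, 73.35 and 41.43 in the control and 30.41, 38.52 and 46.61 in the knockdown. Control 3 lay within the knockdown range, and control 2 read from its FPKM column, at 41.77, lay there too. The log2 ratio of PER1 was 0.99 (SE 0.34), but 0.09 with the FPKM reads for control 2 and without control 1. PER2 CPM was 31.47, 16.12 and 16.84 in the control and 19.43, 16.66 and 15.91 in the knockdown. Only control 1 stood apart for PER2, whose log2 ratio was 0.31 (SE 0.27), or -0.16 with the FPKM reads for control 2 and without control 1. PER3 CPM was 4.07, 4.61 and 6.60 in the control and 6.41, 5.70 and 9.57 in the knockdown. PER3 was the only member other than CRY1 with a ratio below 0 on the log2 scale, at -0.50 (SE 0.31), with overlapping groups. Its ratio was -0.32 with the FPKM reads for control 2 and -0.13 when control 1 was also left out.

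The cryptochromes, which bind and repress CLOCK and BMAL1, differed little. CRY1 was the steadiest member, with control CPM of 22.83, 24.98 and 22.03 and knockdown CPM of 23.11, 24.20 and 26.87. Its log2 ratio was -0.09 (SE 0.16), or -0.17 with the FPKM reads for control 2 and without control 1. CRY2 CPM was 34.93, 30.77 and 19.66 in the control and 20.38, 25.91 and 20.20 in the knockdown. Controls 1 and 2 were above the knockdown range and control 3 below it, with a log2 ratio of 0.36 (SE 0.23). Read from its FPKM column, control 2 was at 24.47, inside the knockdown range, and with control 1 also left out the log2 ratio was -0.026.

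NR1D1 (chromosome 17, 40092793 to 40100589, minus strand) differed from BHLHE40 and PER1 in how the control libraries were ordered. NR1D1 CPM was 40.05, 22.64 and 37.08 in the control and 13.59, 14.13 and 21.66 in the knockdown. The groups did not overlap, although control 2 at 22.64 was just above knockdown 3. Read from its FPKM column, control 2 stood at 41.25, close to the other controls. The means were 33.26 ± 9.31 and 16.46 ± 4.51 (SD, n = 3 each), and the log2 ratio 1.01 (SE 0.27). It was 1.25 with the FPKM reads for control 2 and 1.23 when control 1 was also left out.

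NR1D2, the relative of NR1D1 that also represses BMAL1, did not share this gap. Its CPM was 24.07, 19.08 and 28.56 in the control and 21.71, 15.65 and 32.29 in the knockdown, and the log2 ratio was 0.04 (SE 0.28), or 0.24 with the FPKM reads for control 2 and without control 1. DBP, the D-box activator, had CPM of 9.75, 6.89 and 4.55 in the control and 5.08, 4.05 and 5.15 in the knockdown. Its control 3 was within the knockdown range, and the log2 ratio was 0.57 (SE 0.32), or 0.08 with the FPKM reads for control 2 and without control 1.

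**Figure D2:**
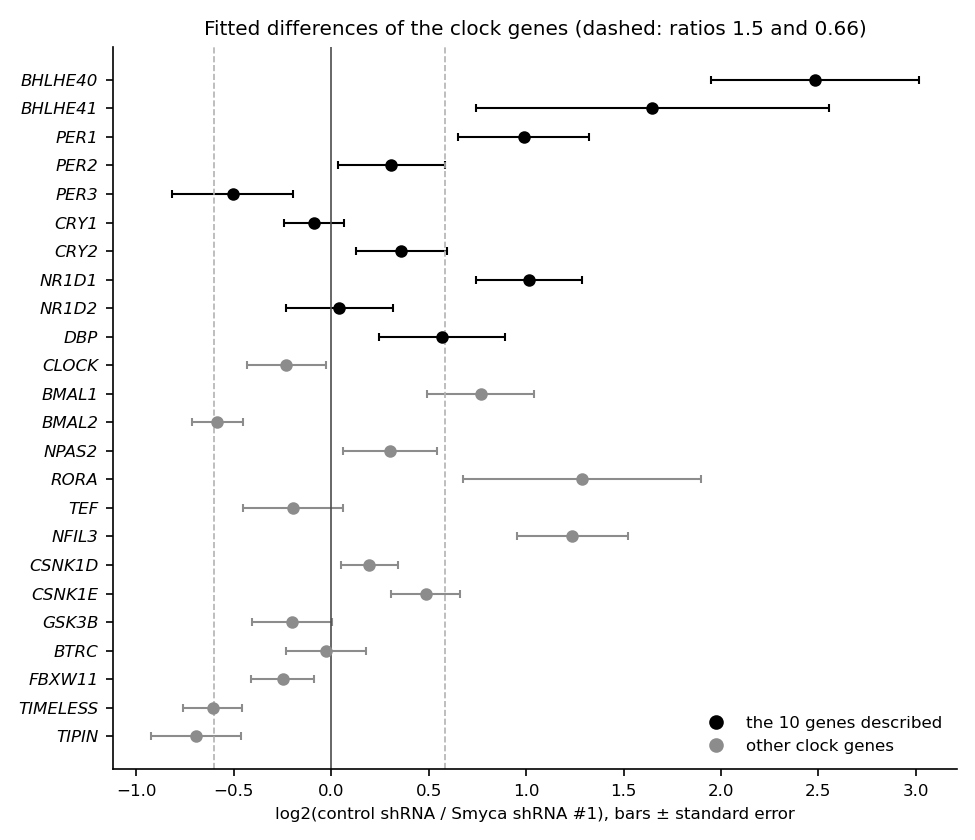
Log2 ratio of control to knockdown with its SE for the 10 genes and 14 other clock genes, from the fit of all 6 libraries; values right of 0 are lower in the knockdown, and dashed lines mark ratios of 1.5 and 0.66. BHLHE40 was at 2.48, and PER3 at -0.50.

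Counted together, 8 members were higher and 2 lower in the control, with a median log2 ratio of 0.46 beside 0.04 over all genes tested. A ratio of at least 1.5 was reached by 4 members (BHLHE40, BHLHE41, PER1 and NR1D1), beside 15.6% of genes, and at most 0.66 by 0, beside 5.54%. An unadjusted p under 0.05 was reached by 3 members, beside 19.2% of genes. Both criteria of the study, the ratio and an adjusted p under 0.05, were applied with edgeR and Benjamini-Hochberg adjustment. They were met by 0 members and by 0.0265% of genes (4 of 15075). The study itself used DESeq and reported many more genes at these cut-offs. The counts of members rest on the contrast used to select BHLHE40, so nothing is read from them. The control groups lay wholly above the knockdown for BHLHE40 and NR1D1, beside 12.4% of genes, and for 0 members wholly below it, beside 12.5%. With 3 against 3 libraries, an exact permutation test cannot give a two-sided p under 0.1.

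Of the alternatives, 4 called any member, and each of them also called more of all genes. DESeq2 called BHLHE40 and NR1D1, beside 5.55% of genes. With no filter on low counts 3 members were called, beside 3.01%, and without control 3 BHLHE40, BHLHE41 and PER1 were, beside 10.5%. With the FPKM reads for control 2 and without control 1, BHLHE40 and NR1D1 were called, beside 9.56%. The control group of this last fit consists of the 2 sets of reads that were nearly alike, which narrows its spread. With RLE size factors, total counts, at least 10 counts in every library, the FPKM reads alone, an adjusted p under 0.1, or any other library left out, 0 members were called.

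**Figure D3:**
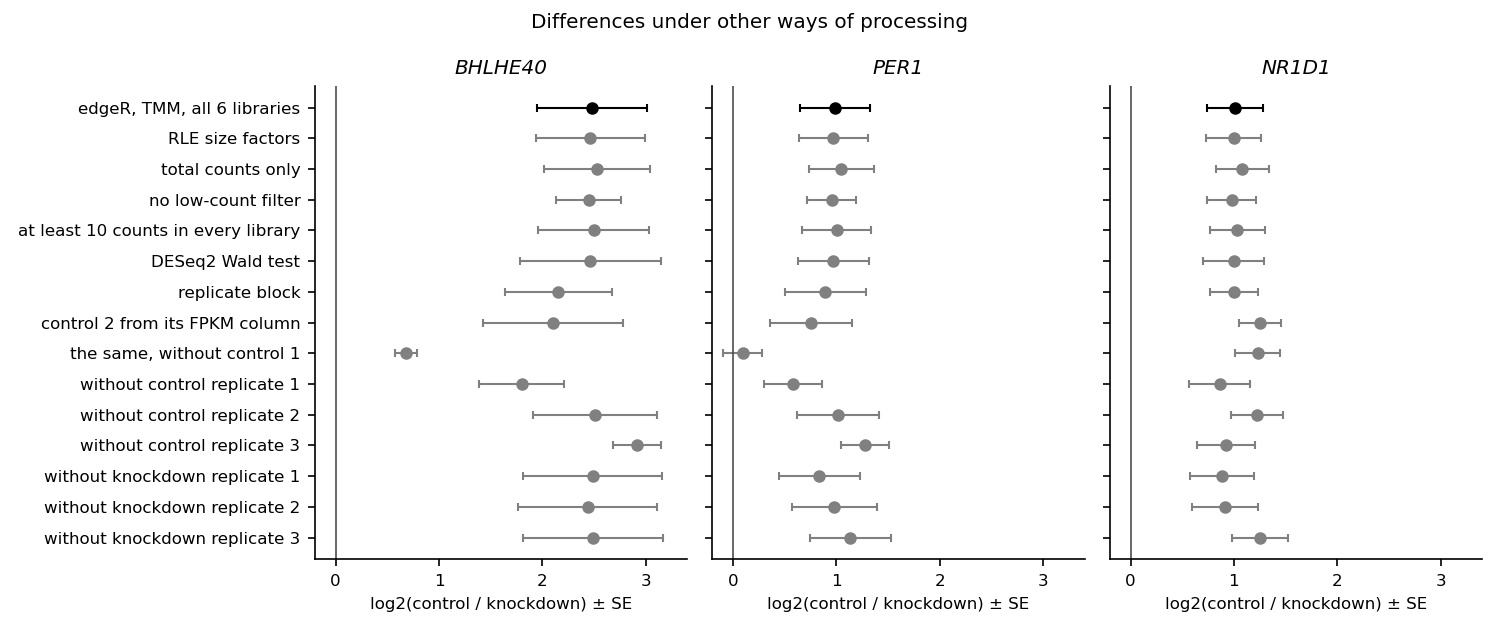
Log2 ratio of control to knockdown with its SE for BHLHE40, PER1 and NR1D1 under each way of processing. BHLHE40 lay between 0.68 and 2.91, PER1 came near 0 without control 1 and with the FPKM reads for control 2, and NR1D1 stayed between 0.86 and 1.25.

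Levels between genes were compared per kilobase of the gene length that the deposited FPKM values imply. In the control, BHLHE40 stood at 244.5 ± 180.1 CPM per kb and PER1 at 51.8 ± 24.8 (SD, n = 3), and these were the highest members in both groups. CRY2 (19.7), CRY1 (12.9), NR1D1, NR1D2 (10.1) and PER2 (9.83) followed in the control, then DBP (3.24), PER3 (1.55) and BHLHE41 (0.747). The order from CRY1 to PER2 was within the spread of these libraries. In the knockdown BHLHE40 was at 43.8 and PER1 at 26.1, and NR1D1, at 5.94, came below NR1D2 and PER2. The order depends on the length used: per kilobase of GENCODE exons, NR1D1 (12.7) was above PER1 (10.9) in the control.

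**Figure D4:**
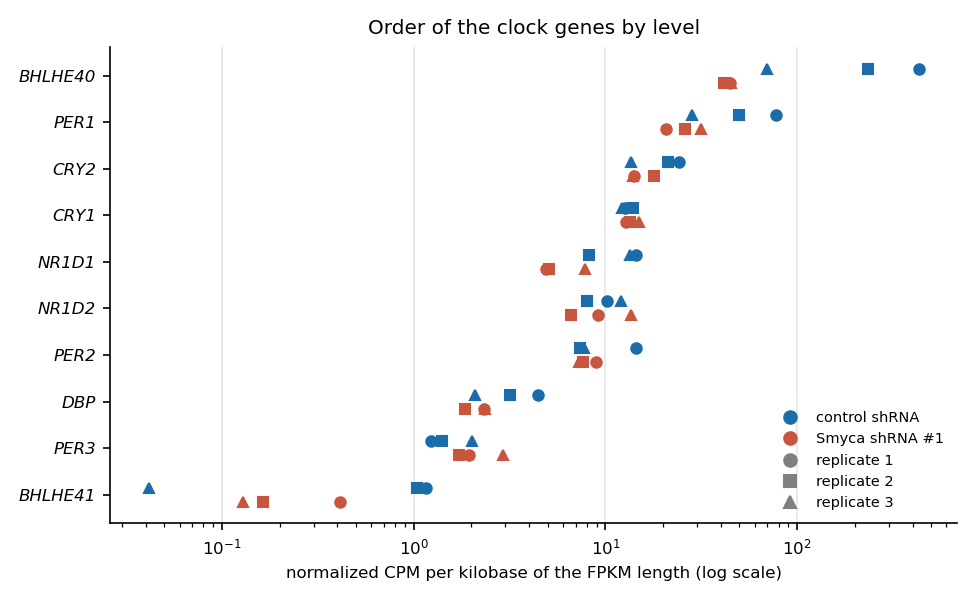
CPM per kilobase of the 10 genes in each library on a log scale, ordered by their control mean. BHLHE40 and PER1 were the highest in both groups, and BHLHE41 the lowest.

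The pattern over libraries that BHLHE40 showed, highest in control 1, then 2, then 3, was shared by BHLHE41, PER1, CRY2 and DBP. Counting BHLHE40 itself, whose values set this order, that is 50.0% of the members, beside 26.1% of all genes tested. With control 2 read from its FPKM column the order held for these genes and CRY1. That is 60.0% with BHLHE40 again counted, beside 22.3%. Controls 2 and 3 were then nearly level for BHLHE40, PER1 and CRY1. Since BHLHE40 could not fail to match, nothing is read from these shares. The 5 genes most like BHLHE40, by Pearson's r of log2(CPM + 1) over the 6 libraries among 10476 genes, were ANKRD37 (0.9987), TMC8 (0.9981), FBXO44 (0.9981), HSPA6 (0.9969) and BAIAP2L1 (0.9965). ANKRD37, a hypoxia-induced gene that is also on the hypoxia list described next, had CPM of 31.66, 20.67 and 6.08 in the control and 4.13, 4.05 and 4.29 in the knockdown. HSPA6, a heat shock gene, had 43.13, 17.72 and 0.96 in the control and at most 0.38 in the knockdown. Its near-copy HSPA7 makes the counts of HSPA6 uncertain. Read from its FPKM column, control 2 was at 6.42 CPM for ANKRD37 and 1.10 for HSPA6, near control 3. With those reads r was 0.9992 for ANKRD37 and 0.9953 for HSPA6. Among clock genes, by the counts of control 2, r with BHLHE40 was 0.98 for NFIL3, 0.96 for BMAL1, 0.95 for PER1 and 0.93 for DBP. It was negative for TIPIN (-0.90), BMAL2 (-0.84), TIMELESS (-0.84), PER3 (-0.80) and CLOCK (-0.77). These points share their libraries, and the values are a description.

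A list of 12 hypoxia genes is given beside BHLHE40. All 12 had at least 10 counts in every library. Their log2 ratios were all above 0, beside 53.4% of all genes tested. By edgeR with adjustment 0 of the 12 met both criteria, 8 had an unadjusted p under 0.05, beside 19.2% of all genes, and in 6 the control lay wholly above the knockdown, beside 12.4%. Their mean log2(CPM + 1), relative to the mean of the 6 libraries, was 1.45, 0.76 and -0.27 in controls 1, 2 and 3 and -0.63, -0.86 and -0.46 in the knockdown. By the counts of control 2, 10 of the 12 followed the order of controls 1, 2 and 3, all but BNIP3 and LOX. With control 2 read from its FPKM column only 5 of the 12 did, and the mean levels were 1.63, -0.14 and -0.09 in the control and -0.45, -0.68 and -0.28 in the knockdown. Only control 1 then stood far above the knockdown. NDRG1 had CPM of 837.1, 347.4 and 36.37 in the control and 17.71, 16.03 and 78.70 in the knockdown, with control 2 at 34.6 from its FPKM column. Of 8 immediate-early genes, the kind to which PER1 belongs, all 8 were higher in the control with no overlap, beside 12.4% of all genes, and 3 of the 8 (JUN, DUSP1 and ZFP36) met both criteria, out of 4 genes called in all. By the counts of control 2 their mean was 0.85, 0.49 and 1.53 in the control and -0.74, -1.19 and -0.94 in the knockdown. With the FPKM reads it was 0.67, 1.40 and 1.35 in the control and -0.92, -1.37 and -1.13 in the knockdown. Under either column the mean of this list was not highest in control 1, where PER1 was highest. Its genes differed in this. DUSP1 was highest in control 1 (48.93 CPM) under either column, and ZFP36 (74.05) only by the counts of control 2. The other genes of the list were highest in control 2 or 3. The part of either list in the differences of the clock genes was not tested.

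**Figure D5:**
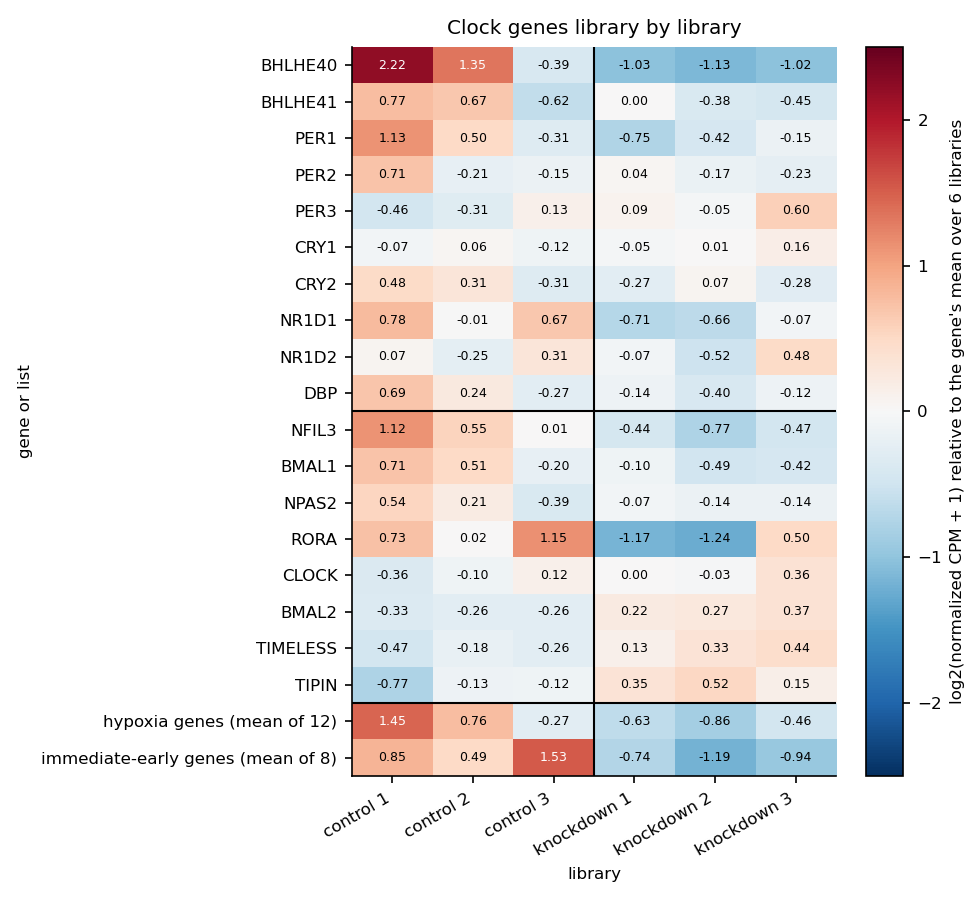
Level of the 10 genes, 8 other clock genes and the means of the hypoxia and immediate-early lists in each library, as colour and printed value, on the log2(CPM + 1) scale relative to the mean of the 6 libraries, with control 2 from its counts. Among the controls, BHLHE40 and the hypoxia list were highest in control 1 and lowest in control 3, while the immediate-early list was highest in control 3.

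The rest of the clock was taken from a list of 21 genes, of which 16 were tested. RORB and FBXL21P had 0 counts, and HLF, CIART and USP2 too few. By edgeR, 0 of the 16 met both criteria, 4 were higher and 3 lower in the control at an unadjusted p under 0.05, beside 19.2% of all genes in either direction, and the median log2 ratio was -0.02. Adjusted p-values for these genes come from edgeR (quasi-likelihood, Benjamini-Hochberg over every gene tested).

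Of the activators, CLOCK had a log2 ratio of -0.23 (adjusted p = 0.559) and its partner BMAL1 0.77 (adjusted p = 0.190). BMAL1 CPM was 22.58, 19.51 and 11.59 in the control and 12.44, 9.31 and 9.77 in the knockdown, with control 3 inside the knockdown range. Control 2 of BMAL1 was at 12.56 from its FPKM column, and with those reads the log2 ratio was 0.55, or 0.18 without control 1. BMAL2, a paralog of BMAL1, went the other way, with CPM of 34.43, 36.24 and 36.37 against 50.98, 52.77 and 56.72. Its groups did not overlap, its control libraries were level, and its log2 ratio was -0.58 (SE 0.13, adjusted p = 0.114). NPAS2, which can replace CLOCK, was at 0.30 (adjusted p = 0.518), but at -0.29 with the FPKM reads for control 2 and without control 1. RORA, an activator of BMAL1, was at 1.29 (SE 0.61, adjusted p = 0.293), with CPM of 9.63, 5.48 and 13.19 in the control and 1.84, 1.71 and 8.06 in the knockdown. Knockdown 3 stood apart, and without it the ratio was 2.39, while leaving out knockdown 2 gave 0.93. RORA was at 1.48 with the FPKM reads for control 2 and without control 1, where CLOCK was at -0.003.

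NFIL3, a repressor at D-boxes, had CPM of 44.68, 29.90 and 20.17 in the control and 14.54, 11.40 and 14.26 in the knockdown. Its groups did not overlap, and its log2 ratio was 1.24 (SE 0.28, adjusted p = 0.114), or 0.62 with the FPKM reads for control 2 and without control 1. TEF, a D-box activator like DBP, was at -0.20 (adjusted p = 0.702), or -0.58 with the FPKM reads for control 2 and without control 1. Of the kinases that mark PER proteins for degradation, CSNK1E was at 0.48 (adjusted p = 0.197), or 0.70 with the FPKM reads for control 2 and without control 1, and CSNK1D at 0.20 (adjusted p = 0.487). The kinase GSK3B and the ubiquitin ligase parts BTRC and FBXW11 lay between -0.25 and -0.03, and in that same reduced set of libraries between -0.62 and -0.27.

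TIMELESS and its partner TIPIN, which act at replication forks and have been linked to the clock, were lower in the control. TIMELESS CPM was 137.4, 167.6 and 159.1 in the control and 208.6, 240.0 and 258.7 in the knockdown, with no overlap (log2 ratio -0.61, SE 0.15, adjusted p = 0.124). TIPIN CPM was 10.31, 16.55 and 16.78 in the control and 23.49, 26.67 and 20.34 in the knockdown (log2 ratio -0.69, SE 0.23, adjusted p = 0.169). With the FPKM reads for control 2 and without control 1, the log2 ratio of TIMELESS was -0.62, that of TIPIN -0.56 and that of BMAL2 -0.52.

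Genes that overlap a member could share reads with it, since the libraries kept strand but the strand setting of the counting was not given in the sources used here. NR1D1 shares 1075 bases with THRA on the other strand, and THRA had CPM of 43.69, 48.61 and 38.61 in the control and 46.67, 53.34 and 75.20 in the knockdown. The log2 ratio of THRA was -0.42 (adjusted p = 0.296 by edgeR). DBP shares 688 bases with SPHK2, at a log2 ratio of -0.61 (adjusted p = 0.217), and NR1D2 shares 1306 bases with NKIRAS1, at 0.35 (adjusted p = 0.514). BHLHE41 shares 3047 bases with SSPN on the other strand, and SSPN had at most 7 counts in any library, with CPM of 0.432, 0.246 and 0.064 in the control and 0.063, 0.127 and 0.066 in the knockdown. BHLHE40-AS1 also had at most 7 counts, and the genes that overlap PER1, PER2, PER3 and CRY1 at most 10. Whether any member shares reads with these genes was not tested.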

How the data were processed

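RNA from 3 control shRNA and 3 Smyca shRNA #1 libraries of MDA-MB-231 cells was sequenced by the authors after rRNA removal, strand-specifically and with paired ends. Reads were mapped to GRCh38 (hg38) with TopHat2 2.0.12, per the submitters' processing notes, and counted per gene with HTSeq. The authors deposited raw read counts of 58302 Ensembl genes per library, and beside them FPKM values. Symbols came from GENCODE release 44, which matched 57532 identifiers.

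The analysis ran in R 4.3.3. In edgeR 4.0.16, counts were scaled by TMM, filtered with filterByExpr and compared between control and knockdown by a quasi-likelihood test on the whole table, adjusted by Benjamini-Hochberg. The study's criteria were kept (adjusted p under 0.05, with a ratio reaching 1.5 or no higher than 0.66), but its DESeq was not used. SEs were worked out from the log2 ratio and its F value. Total counts of 14999307 to 16501085 per library and a biological coefficient of variation of 25.2% set the precision. The FPKM column of control 2 was turned back into whole reads with gene lengths implied by the other 5 libraries. All of the checked reads were within 0.05 of a whole number (100%). Code was tested on simulated data.

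The members and gene lists were chosen with earlier results of these data known. Genes named were all members, the clock list, Smyca, genes overlapping a member, the 5 genes most like BHLHE40, and the hypoxia, immediate-early and cell marker lists. Some listed genes are counted but not reported here by name. NDRG1 was singled out after its values were seen. Alternatives tried were total counts, RLE size factors, other filters, DESeq2 1.42.0, a replicate block, each library left out, an adjusted p under 0.1, and the FPKM reads of control 2. The same with control 1 left out was added after seeing the data.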

Additional observations from a re-analysis of the deposited data

How the results depend on the processing

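The log2 ratio of BHLHE40 was positive in every fit run. It was 2.45 with no filter on low counts, 2.46 with DESeq2, 1.80 to 2.91 with each library left out, and 0.68 with the FPKM reads of control 2 and without control 1, a setting chosen after seeing the data. Members called numbered 3 with no filter, 2 with DESeq2, 2 with the FPKM reads and without control 1, and 0 to 3 with each library left out, the 3 being without control 3. Other clock genes called numbered 2 with no filter and with DESeq2 (NFIL3 and TIMELESS), 3 with the FPKM reads and without control 1 (CSNK1E, GSK3B and TIMELESS), and 0 to 4 with each library left out, the 4 being without control 3 (BMAL1, BMAL2, NFIL3 and TIMELESS). The count of all genes called was 4, but 836 with DESeq2, 916 with no filter, 1628 without control 3 and 1502 with the FPKM reads and without control 1. Signs turned for PER2 (-0.16 with the FPKM reads and without control 1, and -0.07 to 0.48 with each library left out), CRY2 (-0.026) and NPAS2 (-0.29) in that same FPKM setting, and NR1D2 (-0.18 to 0.35 with each library left out). The cause was not tested. BTRC, near 0, was at 0.039 with total counts and -0.17 to 0.11 with each library left out. Of 319 other values of 23 genes, 292 kept their direction and side of the threshold, 17 passed it and 10 turned. BHLHE41 gave no value where 10 counts were required in every library or where its reads fell below the filter.

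Libraries with the same number did not deviate together (r = 0.06, 0.08 and -0.01), so the numbers do not pair them. With the replicate number as a block the log2 ratio of BHLHE40 was 2.15, and 0 members and 0 other clock genes were called. Low counts limit BHLHE41 most.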
